A study of Homo sapiens with 9 samples.

Results

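Immediate early genes are the genes that a resting cell transcribes at once when a growth factor, serum or stress signal arrives, before any new protein has been made. The 10 genes described here are FOS, FOSB, FOSL1, JUN, JUNB, EGR1, EGR2, IER2, IER3 and MYC. They were taken by name from the 54562 genes of the expression table, which pairs no names with its Ensembl identifiers, and all 10 were found there. They were measured in HEK293 cells, a human embryonic kidney line, by polyA strand-specific RNA-seq 48 hours after transient transfection by lipofection. The 3 groups are cells given the empty vector (EV), cells given a plasmid with the ADARB1 cDNA that skips the Alu exon (Short), and cells given the ADARB1 cDNA that includes it (Long). All groups carry the cells' own ADARB1, the gene of the RNA editing enzyme ADAR2, and all were grown with fetal bovine serum. Each group has 3 libraries, numbered 1 to 3. The methods state that the transfections were repeated in different cell passages, so the number is read here as the passage and each passage holds 1 EV, 1 Short and 1 Long library. Whether the numbers follow the order of the passages in time is not given in the sources used here.

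The proteins of the FOS family (FOS, FOSB, FOSL1) pair with those of the JUN family (JUN, JUNB) to form the transcription factor AP-1. EGR1 and EGR2 are zinc finger transcription factors, IER2 and IER3 are small proteins named for their early induction, and MYC is a transcription factor that with its partner MAX drives growth and ribosome production. The signal usually runs through RAS and the MAP kinases ERK1 and ERK2 to serum response factor and its ELK partners, or to CREB, at promoters that are already open. The transcripts are short-lived, in part because AU-rich elements in the 3′ untranslated region recruit decay factors, and phosphatases and adaptor proteins that are themselves induced shut the signal off.

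Both elements could be read in the reference sequence. The stretch of the FOS 3′ untranslated region below holds the AU-rich nonamer TTATTTATT, which was found in no other of the 10 genes and in 9.81% of the 12019 tested protein-coding genes with an annotated 3′ untranslated region. It lies on the plus strand of GRCh37 (hg19) at chr14:75748763-75748792, in the last part of the FOS transcript, and capitals mark the overlapping ATTTA pentamers.
FOS 3′ untranslated region: tgtttttaATTTATTTAttaagatggattc

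RefSeq promoters (build GRCh38.p14) were used for 7 of the 10 genes, and each was matched without a mismatch to 1 place in GRCh37. FOSL1 and IER3 have no entry there and the MYC entry was not used. The 250 bases before each start were searched for the CArG box (the motif of serum response factor), the cyclic AMP response element TGACGTCA, the AP-1 site TGACTCA, the SP1 box GGGCGG and the EGR site GCGTGGGCG on both strands, and for the TATA box TATAAA on the strand of the gene. The 5 promoters below, bases 120 to 11 before the start, are shown because they hold a CArG or a TATA box, which capitals mark.
FOS, chr14:75745411-75745520, plus strand, TATA box: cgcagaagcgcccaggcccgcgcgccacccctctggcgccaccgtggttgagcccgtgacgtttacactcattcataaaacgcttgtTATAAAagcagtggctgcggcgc
FOSB, chr19:45971134-45971243, plus strand, TATA box: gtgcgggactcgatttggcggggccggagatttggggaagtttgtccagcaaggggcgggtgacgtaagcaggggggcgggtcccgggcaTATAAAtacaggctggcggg
JUNB, chr19:12902180-12902289, plus strand, TATA box: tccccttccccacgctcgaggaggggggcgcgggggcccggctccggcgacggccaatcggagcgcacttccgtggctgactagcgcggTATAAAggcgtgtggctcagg
EGR1, chr5:137801048-137801157, plus strand, CArG boxes: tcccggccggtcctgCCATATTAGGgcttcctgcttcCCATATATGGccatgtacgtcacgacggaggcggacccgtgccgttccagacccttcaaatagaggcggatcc
EGR2, chr10:64576137-64576246, minus strand, CArG box: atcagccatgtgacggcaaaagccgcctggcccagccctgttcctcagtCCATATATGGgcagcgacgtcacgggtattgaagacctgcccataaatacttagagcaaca

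EGR1 had 2 CArG boxes in this window and EGR2 had 1, in the promoter shown, against 1.16% of the 35116 promoters in the RefSeq table with any. The TATA box was in the FOS, FOSB and JUNB promoters and in 6.80% of all promoters. The SP1 box was in 5 of the 7 genes (EGR2, FOS, FOSB, IER2 and JUN) and in 42.6% of all promoters. EGR2 has promoters numbered 1 to 3, with the SP1 box in promoters 1 and 2 and the CArG box in promoter 3, the one shown. The counts here are thus by gene and the shares by promoter. The exact letters of the cyclic AMP response element, the AP-1 site and the EGR site were in none of the 7, and in 1.65%, 4.20% and 0.720% of all promoters. These are matches of letters in a fixed window, with no measurement of binding. Sequence further upstream was not searched, so a gene without a motif here, such as FOS for the CArG box, can still have it outside the window.

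The genes shared features of structure that the choice of names did not use. In the canonical Ensembl transcript of each gene they have a median of 2 exons (range 1 to 4), against 9 in the 12047 tested protein-coding genes, and a median span of 4098 bp, against 29636 bp. With the coordinates of the whole annotated gene, which can be wider than that transcript, JUN (chr1:59242517-59249720, minus strand; canonical transcript of 3257 nt) and JUNB (chr19:12902300-12904129, plus) have 1 exon. FOS (chr14:75745529-75748933, plus), FOSB (chr19:45971253-45978437, plus) and FOSL1 (chr11:65659520-65668044, minus) have 4 exons each. EGR1 (chr5:137801168-137804992, plus), EGR2 (chr10:64571756-64578927, minus), IER2 (chr19:13261225-13265725, plus) and IER3 (chr6:30710976-30712325, minus) have 2, and MYC on chromosome 8 has 3. The median GC content of their transcripts was 56.9%, against 48.0%. The pentamer ATTTA was in the 3′ untranslated region of 9 of the 10, all but IER2, and in 74.4% of the tested protein-coding genes. Per kilobase it was densest in IER3 (8.14), FOS (6.20), JUNB (4) and MYC (3.01), and the median of the 10 genes was 1.99 against 1.77. Genes on the opposite strand overlap FOSB (ERCC1), JUNB (HOOK2), IER2, IER3 (HCG20 and IER3-AS1) and MYC (CASC11), and a gene on the same strand overlaps EGR2. Whether the counting used the strand is not given in the sources used here, so these values can include fragments of the overlapping genes.

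Values are FPKM (fragments per kilobase of transcript, relative to all fragments mapped in that library), so levels can be compared between genes. ADARB1 was listed at 7.66 to 8.61 FPKM in the EV libraries. In passages 1, 2 and 3 it was at 1889, 4145 and 2735 in Short and at 1695, 3449 and 2080 in Long. Both groups thus expressed the gene as labelled, highest in passage 2 and with Short above Long in each passage. Values for the whole gene do not tell the 2 isoforms apart. The 7 HEK293 marker genes in the table, such as VIM and KRT8, ranged from 1.73 to 216 FPKM. Between passages NEFM was higher in passage 3 than in passage 1 and KRT8, KRT18 and VIM were lower, and KRT8 was higher in Long than in EV. The 7 markers of blood, liver, endothelial and islet cells in the table stayed at or under 0.326 FPKM, INS and HBB were at 0 in every library, and the sum of the 7 was 0.255 to 0.533 per library. The table gives no counts, and the steps of its lowest values put the depth at 0.985 to 1.2 times that of EV 1, with the passage 3 libraries deepest in each group. The sum of all FPKM was highest in passage 1 and lowest in passage 3 in each group, from 517170 in EV 3 to 589535 in Short 1.

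JUN was the most abundant of the 10 genes in every library, at 47.1 to 59.6 FPKM. MYC followed at 26.0 to 34.9 and IER2 at 23.1 to 33.5, with overlapping ranges. JUNB (7.49 to 13.1) and EGR1 (6.22 to 12.8) overlapped each other and lay under all IER2 values. FOS, at 2.50 to 6.99, overlapped the low end of EGR1 and lay above every value of FOSL1 (0.835 to 2.31). IER3 (0.361 to 1.91), FOSB (0.517 to 1.01) and EGR2 (0.298 to 0.902) overlapped one another and had means of 0.973, 0.754 and 0.556 FPKM. The 48-hour cells thus held FOS at 4.25 FPKM on average (n = 9 libraries), against 51.2 for its partner JUN. The tests covered the 13801 genes whose mean over the 9 libraries reached 1 FPKM, 7 early genes among them. IER3, FOSB and EGR2 lay under that minimum and are given by their values and by a fit without the filter.

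**Figure D1:**
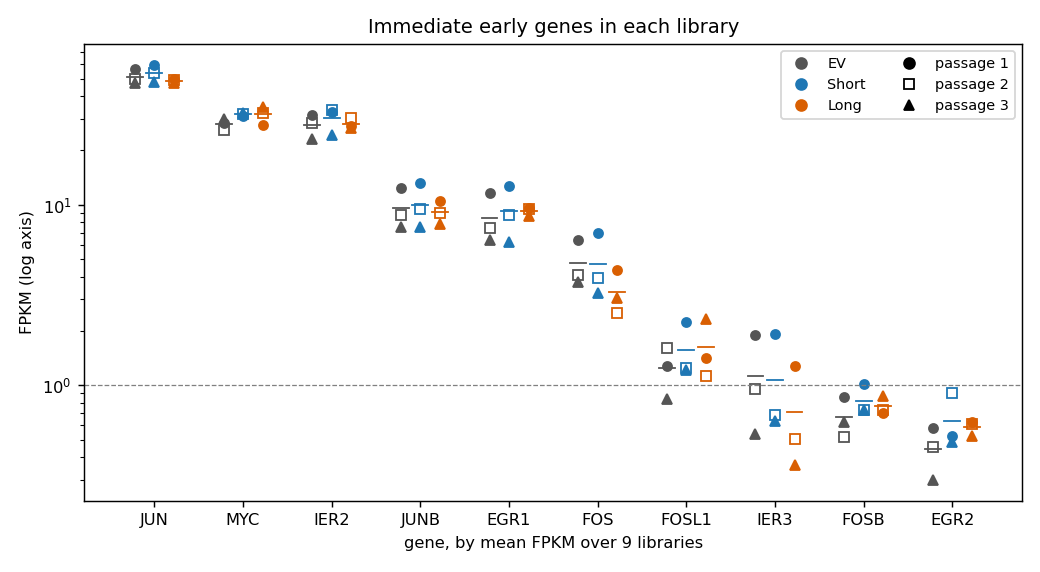
FPKM on a log axis of the 10 immediate early genes in each of the 9 libraries, ordered by mean level. Colours stand for EV, Short and Long, symbols for the passage, horizontal bars for the group mean (n = 3), and the dashed line for 1 FPKM. JUN lies between 47.1 and 59.6 FPKM, and IER3, FOSB and EGR2 lie mostly under 1.

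The comparisons of Short and Long with EV ask whether expression of either ADAR2 isoform went with a change of the early genes. Of the 7 tested, FOS alone differed, and it was lower in Long than in EV. In EV it was at 6.41, 4.10 and 3.72 FPKM in passages 1, 2 and 3, in Short at 6.99, 3.94 and 3.23, and in Long at 4.33, 2.50 and 3.04. Long was the lowest of the 3 groups in each passage, while the groups overlapped because the Long value of passage 1 exceeded the EV values of passages 2 and 3. The difference of log2(FPKM + 1), Long minus EV, was −0.41 (SE 0.11, 95% interval −0.65 to −0.18, limma adjusted p = 0.0419, n = 3 per group). The log2 ratios of FPKM within passages were −0.57, −0.71 and −0.29. An exact two-sided permutation test over the libraries gave p = 0.3, and 0.1 is the smallest that 3 against 3 can give. The exact sign-flip test over the passages gave p = 0.25, the smallest that 3 pairs can give.

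In Long against EV, 1 of 7 early genes passed the test, against 8.32% of all genes tested (6.33% lower in Long). FOS passed in 5 of 11 alternative analyses, with adjusted p from 0.0189 to 0.684 in limma, and it did not pass without the libraries of passage 1 (−0.38, adjusted p = 0.16) or of passage 2 (−0.35, adjusted p = 0.314). In the fit of all genes without the filter on low values, in which 0.00366% of genes passed, none of the 10 early genes did and FOS had an adjusted p of 0.165. The difference between Long and Short for FOS was −0.38 (95% interval −0.62 to −0.14, limma adjusted p = 0.547), so an effect particular to the Long isoform was not shown.

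None of the 7 tested genes passed in Short against EV, where 0.0362% of all genes did, or in Long against Short, where 0.00725% did. At an unadjusted limma p under 0.05, MYC was the 1 early gene in Short against EV, where 3041 of all 13801 genes tested were. FOS and MYC were the 2 in Long against EV, beside 3367 of all genes. FOS was the 1 in Long against Short, beside 1040 of all genes. MYC was at 28.4, 26.0 and 29.9 FPKM in EV, 31.1, 32.0 and 32.3 in Short, and 27.7, 32.4 and 34.9 in Long. Every Short library lay above every EV library, as in 10.9% of all genes tested, and the difference of log2(FPKM + 1) was 0.17 (95% interval 0.01 to 0.34, limma adjusted p = 0.2, exact permutation p = 0.1). Long minus EV was 0.16 for MYC (limma adjusted p = 0.204), with the Long library under the EV library in passage 1 and above it in the others.

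The JUN genes did not pass in any comparison of transfections. JUN averaged 51.1 ± 5.06 FPKM (SD, n = 3) in EV, 53.7 ± 5.95 in Short and 48.7 ± 1.21 in Long, and JUNB 9.56 ± 2.56, 10.0 ± 2.87 and 9.12 ± 1.35. Their 95% intervals against EV lay within −0.23 to 0.24 on the log2(FPKM + 1) scale. FOSL1, which encodes the partner protein FRA1, was at 1.27, 1.61 and 0.835 FPKM in EV, 2.25, 1.24 and 1.21 in Short and 1.42, 1.12 and 2.31 in Long. These values had no common order over the passages, and the interval of Long minus EV ran from −0.24 to 0.67. FOSB ranged from 0.517 to 0.859 FPKM in EV and from 0.705 to 1.01 in the ADARB1 groups, with overlap.

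EGR1 was at 11.6, 7.40 and 6.38 FPKM in EV, 12.8, 8.72 and 6.22 in Short, and 9.59, 9.47 and 8.71 in Long. The group means of 8.46 ± 2.78, 9.24 ± 3.31 and 9.26 ± 0.476 (SD, n = 3) differed by less than the spread within EV or Short. Long lay under EV in passage 1 and above it in passages 2 and 3. EGR2 averaged 0.442 ± 0.139 FPKM in EV, 0.637 ± 0.23 in Short and 0.587 ± 0.0536 in Long.

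IER2 averaged 27.6 ± 4.22 FPKM in EV, 30.1 ± 5.13 in Short and 28.1 ± 2.00 in Long (SD, n = 3). IER3 was at 1.90, 0.958 and 0.535 FPKM in EV, 1.91, 0.680 and 0.632 in Short, and 1.28, 0.504 and 0.361 in Long. Long was the lowest in each passage, as for FOS, with log2 ratios to EV of −0.57, −0.93 and −0.57, and the groups overlapped. In the fit without the filter the IER3 difference, Long minus EV, was −0.30 (95% interval −0.50 to −0.10, limma adjusted p = 0.168).

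**Figure D2:**
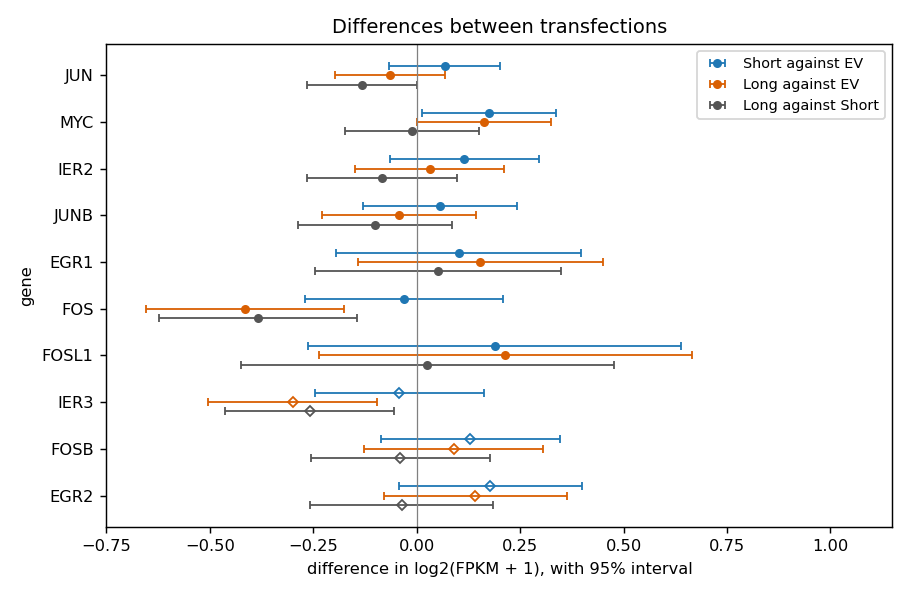
Differences of log2(FPKM + 1) between the transfections for each early gene, with 95% intervals from limma on all 9 libraries. Filled circles are the 7 genes tested and open diamonds are IER3, FOSB and EGR2 from the fit without the filter. FOS lies at −0.41 in Long against EV and −0.38 in Long against Short.

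Lists of genes around the early response were read from the same fit, by counts and medians. In Short against EV, none of the 28 other early response genes, 12 other AP-1 genes, 16 feedback regulators, 30 signalling genes, 23 decay genes, 15 MYC partners or 22 MYC target genes tested passed, and none did in Long against Short. The differences with 1 direction in the 3 passages that were among the largest in each list of Short against EV were 0.35 for the stress gene GADD45G and 0.19 for ID1, −0.31 for ATF2 and 0.24 for JUND, −0.19 for NAB1 and 0.15 for DUSP8, 0.30 for HRAS and −0.29 for SOS1, −0.42 for SKIC3 and 0.35 for EXOSC4, 0.27 for MAX, and 0.30 for SRM and 0.20 for PES1. Their adjusted p in limma ran from 0.11 to 0.358.

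In Long against EV, none of the other early response genes or feedback regulators passed (of the latter, 2 did with each library rescaled to the same sum and 1 with median ratio scaling), with medians of 0.02 for both lists against 0.04 for all genes. Among genes with 1 direction in the 3 passages, the largest differences there were 0.26 for GADD45G, 0.10 for the nuclear receptor gene NR4A1, −0.28 for SPRY1 and −0.22 for NAB1 (limma adjusted p = 0.0615 to 0.566). Of 12 other AP-1 genes tested 1 passed (8.33%) and of 30 signalling genes 3 did (10.0%), close to the 8.32% of all genes tested. ATF2, which encodes an AP-1 protein that also binds the cyclic AMP response element, averaged 13.2 FPKM in EV and 8.91 in Long (difference −0.57, limma adjusted p = 0.012). CREB1, a signalling gene that encodes a protein binding the same element, averaged 16.7 and 13.3 FPKM (−0.33, limma adjusted p = 0.0247), and ATF1 averaged 21.5 and 17.6 FPKM (−0.31, limma adjusted p = 0.049). HRAS, which encodes a RAS protein, was higher, at 71.8 and 88.8 FPKM (0.30, limma adjusted p = 0.0121).

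Of 23 genes of AU-rich element binding and mRNA decay, 3 were lower in Long than in EV and 2 were higher, 21.7% in all against 8.32% of all genes tested (6.33% lower and 1.99% higher). The Ski complex gene SKIC3 averaged 35.1 FPKM in EV and 20.3 in Long (−0.87, limma adjusted p = 0.00965), the 5′ exonuclease gene XRN1 10.8 and 7.34 (−0.57, limma adjusted p = 0.0362), and the decapping enzyme gene DCP2 21.8 and 16.9 (−0.35, limma adjusted p = 0.0205). KHSRP, which encodes a protein that binds AU-rich elements, was higher (174 and 201 FPKM, 0.21, limma adjusted p = 0.0225), and so was HNRNPD. MAX was the 1 gene of 15 MYC partners to pass (6.67%, against the 8.32% of all genes), and was higher in Long (28.4 and 36.3 FPKM, 0.34, limma adjusted p = 0.0484). Of 22 MYC target genes 5 were higher, among them SRM (0.28), NOP16 (0.25), FBL (0.24) and PES1 (0.22), and LDHA was lower, against 1.99% of all genes tested that were called higher in Long. In all these lists no gene passed without passage 1 or without passage 2. Across 13398 tested genes the difference of Long minus EV had a Spearman correlation of 0.52 with GC content, and 0.62 for Short minus EV. After the GC correction 0 of 12 other AP-1 genes, 1 of 30 signalling genes, 2 of 23 decay genes, 0 of 15 MYC partners and 0 of 22 MYC targets passed in Long against EV, while FOS still did (−0.50, limma adjusted p = 0.0494). Of all genes tested, 305 passed after that correction.

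More of the early genes passed between passages than between transfections. Between passages, 5 of the 7 tested genes passed the test (FOS, JUN, JUNB, EGR1 and IER2) and all 5 were lower in passage 3 than in passage 1, against 36.4% of all genes that passed and 19.4% that passed and were lower in passage 3. Every passage 1 library exceeded every passage 3 library for the same 5 of the 7 tested genes, and for 28.5% of all genes tested. FOS, JUN, JUNB and EGR1, 4 of the 7, were highest in passage 1 within each of the 3 groups, as were 14.2% of all genes tested. Both also held for IER3, which lay under the filter and so outside these shares. The median difference of the 7 genes, passage 3 minus passage 1, was −0.30, against −0.05 for all genes. The passages are 3 in number and whether each was also 1 round of library preparation is not given in the sources used here, so passage and batch cannot be told apart.

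FOS averaged 5.91 ± 1.4 FPKM in passage 1, 3.52 ± 0.882 in passage 2 and 3.33 ± 0.351 in passage 3 (SD over the 3 groups). It was 1.75-fold lower in passage 3 than in passage 1 by geometric means, and the difference of log2(FPKM + 1) was −0.66 (95% interval −0.90 to −0.42, limma adjusted p = 0.00197 for the 3 passages together). The step lay between passages 1 and 2 (−0.61), and passages 2 and 3 differed by −0.04 (95% interval −0.28 to 0.20). Each group showed this step, with FPKM ratios of passage 1 to passage 2 of 1.56 in EV, 1.77 in Short and 1.73 in Long. The ratios of passage 1 to passage 3 were 1.72, 2.16 and 1.42. In Long, FOS was higher in passage 3 than in passage 2 (3.04 and 2.50 FPKM).

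JUNB was highest in passage 1 and lowest in passage 3 in every group. It was at 12.4, 8.76 and 7.49 FPKM in EV, 13.1, 9.43 and 7.49 in Short, and 10.5, 9.03 and 7.81 in Long, and no 2 passages overlapped. Passage 3 was 1.58-fold lower than passage 1 (difference −0.59, 95% interval −0.78 to −0.41, limma adjusted p = 0.00157). JUN was at 56.8, 49.5 and 47.1 FPKM in EV, 59.6, 53.6 and 47.7 in Short and 49.7, 49.1 and 47.4 in Long. Its difference was smaller, 1.17-fold (−0.22, limma adjusted p = 0.0431), and the passage 3 values of the 3 groups lay within 1 FPKM of each other. FOSL1 and FOSB had no common order, and FOSL1 did not pass (−0.14, 95% interval −0.59 to 0.32, limma adjusted p = 0.74).

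EGR1 averaged 11.3 ± 1.61 FPKM in passage 1, 8.53 ± 1.05 in passage 2 and 7.10 ± 1.4 in passage 3 (difference −0.61, 95% interval −0.91 to −0.31, limma adjusted p = 0.0143). The ratio of passage 1 to passage 3 was 1.82 in EV and 2.05 in Short but 1.1 in Long, where the 3 libraries lay between 8.71 and 9.59 FPKM. With 1 library per group and passage, whether the ratio differed between groups could not be tested. EGR2 shares the CArG box with EGR1 in the promoter shown above. It was lowest in passage 3 in each group, at 0.298, 0.487 and 0.526 FPKM in EV, Short and Long, and did not pass in the fit without the filter (limma adjusted p = 0.384).

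IER2 averaged 30.5 ± 2.75, 30.8 ± 2.55 and 24.6 ± 1.78 FPKM in passages 1, 2 and 3. Passages 1 and 2 differed by 0.01 and the step lay between passages 2 and 3 (−0.31, 95% interval −0.49 to −0.13), unlike that of FOS (limma adjusted p = 0.0202 for the 3 passages). IER3 showed the widest range of the 10 genes, with means of 1.70 ± 0.361, 0.714 ± 0.229 and 0.509 ± 0.137 FPKM and a 3.36-fold lower level in passage 3. The ratio of passage 1 to passage 3 was 3.55 in EV, 3.02 in Short and 3.54 in Long. In the fit without the filter IER3 passed (−0.83, 95% interval −1.04 to −0.63, limma adjusted p = 0.0128), beside FOS and JUNB, so 3 of the 10 genes did against 10.5% of all genes in that fit.

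MYC averaged 29.1 ± 1.80, 30.1 ± 3.59 and 32.4 ± 2.46 FPKM in passages 1, 2 and 3, and the passage 3 library was above the passage 1 library in each group. The difference of 0.15 (95% interval −0.01 to 0.31) did not pass (limma adjusted p = 0.252).

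**Figure D3:**
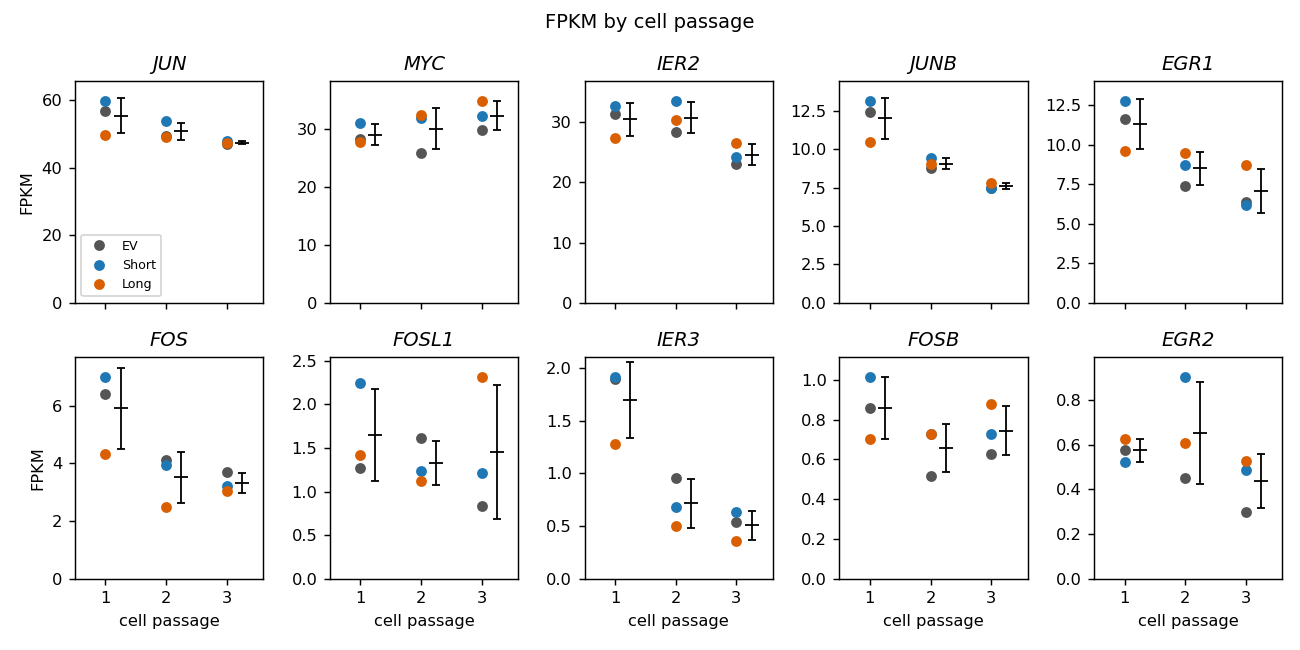
FPKM of each early gene by cell passage, with axes from 0. Points are the EV, Short and Long libraries and the black bars are the mean and SD over the 3 groups. FOS and IER3 are lower in passage 2 than in passage 1, and JUNB is highest in passage 1 and lowest in passage 3. IER2 is lower in passage 3, and MYC averages 29.1, 30.1 and 32.4 FPKM.

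Other measures moved with the passages. Across the 13398 tested genes with an annotated transcript, the difference of passage 3 minus passage 1 had a Spearman correlation of −0.46 with GC content, and genes are not independent replicates. The early genes are richer in GC than most. After a correction for GC content, FOS (−0.53, limma adjusted p = 0.00606), JUNB (−0.48, limma adjusted p = 0.003) and EGR1 (−0.48, limma adjusted p = 0.0383) still passed. IER2 (−0.18, limma adjusted p = 0.14) and JUN (−0.09, limma adjusted p = 0.142) did not, and MYC passed as higher in passage 3 (0.26, limma adjusted p = 0.0448). The share of all genes that passed between passages after the correction is not given here, so these calls have no background beside them. With each library rescaled to the same sum, FOS (−0.64), EGR1 (−0.56), JUNB (−0.53) and IER2 (−0.21) passed and JUN (−0.13, limma adjusted p = 0.178) did not. The 5 calls became 1, FOS, without passage 3, and 2, IER2 and JUNB, without passage 1. Without the EV libraries and without the Short libraries 2 remained in each case, FOS and JUNB, and without the Long libraries 4, all but JUN. Calls over all genes also fell without a passage, without the Short libraries and without the Long libraries, as the last section gives. Without the EV libraries that count is not given here. The smaller counts are thus not read as a trait of the early genes.

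Most of the genes called between passages in the wider early response lists were lower in passage 3 as well. Of 28 other early response genes tested, 14 were called as lower in passage 3 than in passage 1 and 1 as higher. That was 53.6% in all against 36.4% of all genes tested, with a median of −0.24. After the GC correction 11 passed, for which the share of all genes is not given here. The test covers any difference among the passages, and direction is the sign of passage 3 minus passage 1. It thus counts small differences such as that of ID2 (−0.04). KLF10, a zinc finger gene, averaged 21.0, 16.2 and 12.5 FPKM in passages 1, 2 and 3 (difference −0.70, limma adjusted p = 0.000384). HES1, a target of Notch signalling, averaged 34.0, 25.9 and 21.9 (−0.61, limma adjusted p = 0.000328), the histone demethylase gene KDM6B 11.4, 8.81 and 7.15 (−0.61), and CSRNP1 6.21, 4.82 and 3.75 (−0.60). Of 12 other AP-1 genes 6 were lower, among them MAFF (−0.64) and JDP2 (−0.54), while ATF2 was higher (0.61, limma adjusted p = 0.00111). Genes of both directions were thus called within AP-1, and 17.0% of all genes tested were called as higher in passage 3.

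Of 16 feedback regulators 4 were lower and 1 was higher, 31.2% in all and so no larger a share than the 36.4% of all genes tested. SPRY1 (−0.54), NAB2 (−0.47), which encodes a co-repressor of the EGR proteins, DUSP1 (−0.41), the MAP kinase phosphatase gene, and SPRY2 (−0.29) were lower. NAB1 was called as higher at 0.14, but its mean was lowest in passage 2 (16.1, 14.4 and 17.9 FPKM in passages 1, 2 and 3). DUSP1 averaged 26.3 ± 3.0 FPKM in passage 1 and 19.5 ± 0.81 in passage 3 (limma adjusted p = 0.0154). Of the 30 signalling genes 9 were lower and 8 higher, against 19.4% and 17.0% of all genes tested. The receptor gene EGFR averaged 6.64, 5.87 and 4.35 FPKM (−0.51, limma adjusted p = 0.00349) and the kinase gene RPS6KA2 11.7, 9.35 and 6.99 (−0.69), while ATF1 averaged 16.5, 16.7 and 27.3 (0.71) and CREB1 12.9, 12.7 and 19.8 (0.59).

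In the 23 decay genes, 7 were higher in passage 3 and 3 were lower, 43.5% in all against 36.4% of all genes tested. ZFP36, whose product binds AU-rich elements and which is itself an early gene, averaged 5.36, 4.02 and 2.96 FPKM (−0.68, limma adjusted p = 0.00104). SKIC3 (0.90), XRN1 (0.80) and the exosome gene EXOSC3 (0.36) were higher. Of 15 MYC partners 2 were lower (MXI1, −0.53, and PIM1, −0.44) and MGA was higher (0.33), 20% in all and under the 36.4% of all genes. Of 22 MYC target genes 11 were higher, with the nucleolar genes GNL3 (0.57) and NOP16 (0.50) among them, and 3 were lower, with LDHA (−0.62) and CCND2 (−0.46), 63.6% in all against 36.4%, and the list's median was 0.17. Without the libraries of passage 3 none of the genes in these lists passed. Without the Short libraries 7 of the 28 other early response genes passed, in place of 15. Calls over all genes fell in both of these fits too, as the last section gives, so the smaller counts are not read as a trait of the lists.

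**Figure D4:**
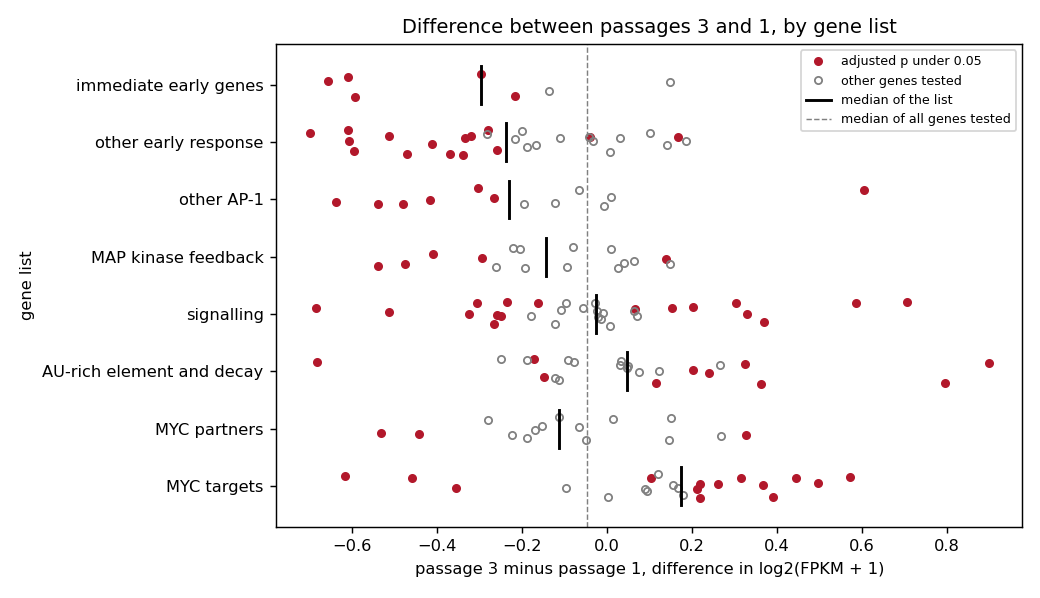
Difference of log2(FPKM + 1), passage 3 minus passage 1, for each tested gene of the early genes and of 7 further lists. Red points passed the limma test between passages, thick bars are list medians and the dashed line is the median of all genes tested. The medians are −0.30 for the early genes, −0.24 for other early response genes and 0.17 for MYC targets, against −0.05 for all genes.

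Over the 9 libraries the early genes that were highest in passage 1 varied together. This is given as a description, since the libraries share passages and the genes were grouped by these same values. Pearson's r of log2(FPKM + 1) was 0.94 for FOS and IER3, 0.92 for JUN and JUNB, and 0.92 for EGR1 and JUNB. It was lower for EGR1 with FOS (0.65) and with IER3 (0.71). MYC had r of −0.54 with IER3 and −0.44 with FOS. Outside the 10 genes, the closest profile to JUNB was that of CSRNP1 (r = 0.98), to FOS that of ELP3 (0.98), to JUN that of IRF2BP2 (0.98), to EGR1 that of TAX1BP3 (0.98), to IER2 that of SLC27A1 (0.99), to MYC that of PIAS4 (0.98) and to FOSL1 that of RPL35P2 (0.93). The mean profile of the 7 tested genes was closest to FZD1, MTRFR, IRS2, ZNRF3 and TMCC2, with r from 0.96 to 0.97. These are the highest r among all other genes tested, over 9 libraries that share passages, and a link between the genes was not tested.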

How the data were processed

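Per the labels and methods, the authors aligned paired-end reads with Tophat (version 1.4.1), Ensembl transcripts being tried before the hg19 genome, and deposited FPKM for each Ensembl gene and library, without pooling. The submitters' processing notes also name Cufflinks. The Ensembl release is not given in the sources used here. Names, exons, GC content and coordinates came from GENCODE lifted to GRCh37, which with the name table named 39446 of 54562 identifiers (72.3%). Of 184 listed genes 180 were in the table. Log2(FPKM + 1) was fitted with limma (version 3.58.1, R version 4.3.3), with group and replicate number as terms and a trended eBayes, on 13801 genes, those averaging 1 FPKM or more. Passages were compared by the F test of their coefficients, with the direction of a call read from passage 3 minus passage 1. P-values were adjusted by Benjamini-Hochberg with a threshold of 0.05. Single genes also had exact two-sided permutation tests (Python version 3.11.15). The fit was tested on simulated data.

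The pairing by number comes from the methods. Deviations from group means correlated at 0.33 to 0.81 in the 9 same-numbered pairs and at −0.63 to 0.37 in the 18 others. All libraries come from 1 cell line. With both terms fitted, p-values of groups and of passages rest on the same residual spread, that of group differences over the passages. The trended eBayes also drew this spread towards that of other genes of like level, so limma p-values do not rest on the gene's own values alone. Named genes were the 10 members and, of each other list, up to 4 genes called by size, or the 2 of largest size with 1 direction in the 3 passages. In Long against Short those genes are not printed. Some other genes that the rule names are not reported here. HNRNPD was named after its value was seen. The members, lists and rules were chosen with earlier results of these data known. FPKM depends on all other transcripts of a library, and without counts no counting intervals were computed.

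Alternatives were a pseudocount of 0.1, TPM, median ratio scaling, eBayes without trend, no filter, a minimum of 5 FPKM, a loess GC correction (span 0.3), no replicate block, only the groups compared, and leaving out each replicate or, between passages, each group.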

Additional observations from a re-analysis of the deposited data

How the results depend on the processing

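The 1 early gene called in Long against EV, FOS, became 0 with eBayes without trend, with no filter on low values, with a minimum of 5 FPKM (which leaves FOS out), with no replicate block and with only the groups compared, and ranged from 0 to 1 with each replicate left out. The count of 5 genes called between passages became 3 with no filter (FOS, JUNB and IER3, which the filter had left out), 2 without the EV libraries, 2 without the Short libraries and 1 to 5 with each replicate left out. The cause was not tested. Among group differences that were not called, signs turned for JUN in Short against EV (−0.0154 with TPM, −0.0139 with the GC correction), JUNB in Short against EV (−0.0204 and −0.0576), IER2 in Long against EV (−0.0422 with TPM, −0.00663 with median ratio scaling, −0.0606 with the GC correction) and MYC in Long against Short (0.000607 with median ratio scaling). FOSL1 turned between passages without the Short libraries (0.0734). With each replicate left out, differences ranged from −0.102 to 0.0315 for FOS in Short against EV, from −0.104 to 0.471 for FOSL1, −0.0911 to 0.0465 for JUNB and −0.0504 to 0.143 for IER2 in Long against EV, and from −0.252 to 0.252 for FOSL1, −0.136 to 0.267 for EGR1 and −0.0706 to 0.0632 for MYC in Long against Short. Of 246 alternative values of group differences 225 kept direction and call, and of 75 passage differences 58 did.

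Over all genes, the 1148 calls of Long against EV became 646 without trend, 305 with the GC correction, 752 with only the groups compared, 1 with no filter, 2 with no replicate block and 2 to 1031 with each replicate left out. The 5028 calls between passages became 2861 with no filter, 2221 without the Short libraries, 2266 without the Long libraries and 30 to 4749 with each replicate left out. The 5 calls of Short against EV ranged from 1 to 59. The paired fit with the GC correction and the replicate block gave 1 call in Long against EV, FOS, and 4 between passages, of which FOS, JUNB and EGR1 were among the 5 and MYC, higher in passage 3, was not.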
